A study of Mus musculus with 4 samples.

Results

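The genes described here are the axon guidance ligands and receptors on the array: 73 genes, read by 94 probes, of the 21154 genes and 28026 probes that could be named. They were chosen by symbol alone: every probe, other than the array's own controls, whose RefSeq accession maps to a symbol that starts with Sema, Plxn, Epha, Ephb, Efna, Efnb, Robo, Unc5 or Ntn, or to Slit1, Slit2, Slit3, Nrp1 or Nrp2. No measured value entered this rule, but the set was chosen with earlier results of these data known. Of the 73 genes, 70 fall into 12 families: 7 class 3 semaphorins, 13 other semaphorins, 9 plexins, 2 neuropilins, 5 A-type ephrins, 3 B-type ephrins, 9 EphA and 5 EphB receptors, 3 Slits, 4 Robos, 6 netrins and netrin-G genes, and 4 Unc5 receptors. The 3 others entered through their names only: Unc50, a membrane protein gene outside the Unc5 receptor family, Unc5cl, a gene of an intracellular signalling protein, and Plxna4os1, a transcript from the strand opposite Plxna4.

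Mesenchymal stromal cells (MSCs) grown from mice as primary cultures were used at passage 5, and their total RNA was read on 4 one-colour arrays, 1 for each culture. Each of 3 cultures carried a different short hairpin RNA, delivered by a retrovirus, against Islr, which encodes Meflin, a protein of the cell surface. They are labelled shlSLR no.1, no.2 and no.3 and are called hairpins 1, 2 and 3 here. The fourth carried a control hairpin (shControl). The strain, age and sex of the mice, and whether the 4 cultures came from 1 cell preparation, are not given in the sources used here, so the replicates of the knockdown are hairpins and not animals, and the control has no replicate.

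Axon guidance cues are proteins that steer growing axons, and the same cues direct migration, adhesion and vessel growth in many other tissues. Secreted class 3 semaphorins bind neuropilins, which pair with plexins as the signalling receptor, whereas most membrane-bound semaphorins bind plexins directly. Ephrins are anchored to the cell surface, A types by a lipid and B types by a membrane-spanning segment, and signal to Eph receptor tyrosine kinases on the neighbouring cell and back into their own cell. Slits act through Robo receptors, and netrins through Dcc, its relative Neo1 and the Unc5 receptors. In bone and marrow stroma, several of these proteins are known from work in mice to act between bone-forming, bone-resorbing and vessel cells.

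The target gene checks the labels. Islr had signals of 11.0, 70.5 and 3.44 on hairpins 1 to 3, against 454 on the control array, and was not well above background on hairpins 1 and 3. By the scanner software's own call, 49.4% to 53.8% of an array's features lay above background and 0 were saturated. All 14 MSC marker genes looked up were above background on all 4 arrays, but some of them differed between arrays. Pdgfra, a growth factor receptor of stromal cells, had signals of 7944, 4024 and 3955 on hairpins 1 to 3 and 9101 on the control array, so it was low on hairpins 2 and 3. Pdgfrb, its relative, was at -1.15 on hairpin 2, Nt5e at -1.48 on hairpin 1 and Thy1 at 1.68 on hairpin 1 (log2 differences from the control). Markers of other cells were partly absent: above background on no array were 5 of 10 endothelial markers (Cdh5, Cldn5, Emcn, Tek and Tie1), 6 of 9 blood and macrophage markers (Ptprc and Adgre1 among them), 2 of 8 neuronal markers (Map2 and Rbfox3), 5 of 7 Schwann and glial markers (Sox10 among them), 3 of 7 mural markers (Des, Myh11 and Rgs5) and 3 of 6 epithelial markers (Cdh1, Epcam and Krt8). The summed signal of the mural list was 101896 to 131267 on the hairpin arrays and 87218 on the control array, most of it from Acta2. The endothelial list summed to 5009 to 5706 on the hairpin arrays and 5133 on the control array, the blood and macrophage list to 6422 to 10169 on the hairpin arrays and 10764 on the control array, and the epithelial list to 179 to 243 on the hairpin arrays and 187 on the control array. The neuronal list summed to 6565 to 8522 on the hairpin arrays and 9732 on the control array, and its members went different ways. Snap25 was at 3814 on hairpin 3 and 7134 on the control, while Tubb3 was at 287 and 429 on hairpins 2 and 3 and 107 on the control, and Stmn2 was above background on hairpin 3 only. Their part in the differences below was not tested. In RNA from whole cultures, fewer cells of a type and less RNA per cell cannot be told apart.

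Most of the guidance genes gave a measurable signal in these stromal cells. At least 1 probe was above background on all 4 arrays for 44 of the 73 genes (60.3%, against 60.1% of all named genes), 10 genes were above background on 1 to 3 arrays, and 19 on none. All 5 A-type ephrins, all 3 B-type ephrins and both neuropilins were above background on all 4 arrays, as were 4 of 5 EphB receptors, 6 of 9 plexins, 5 of 7 class 3 semaphorins and 8 of 13 other semaphorins. The Robo receptors stood at the other end. No Robo gene was above background on all 4 arrays, and Robo1, Robo3 and Robo4 were above it on none, while the ligand genes Slit2 and Slit3 were above it on all 4. The netrin-G genes Ntng1 and Ntng2, the Unc5 receptors Unc5a and Unc5d, and Epha3, Epha4, Epha6, Epha8, Ephb1, Plxnb3, Sema3d, Sema4d, Sema6a and Ntn5 were also above background on no array.

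A signal below background carries an array's own floor and not the gene. Over the 29 member probes that were below background on all 4 arrays, the median log2 differences of hairpins 1, 2 and 3 from the control were 0.20, 0.01 and -0.33, and over the 8615 such probes of all named genes they were 0.20, 0.01 and -0.33. Single probes strayed from these medians, as Epha4 did at 2.24, 1.48 and 1.27, but no array called them above background. Differences of such genes are therefore not described as changes.

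The comparison of the 3 hairpin arrays with the control array asks which guidance genes differ when Islr is depleted. Among the genes above background on all 4 arrays, those beyond 2-fold of the control came from the semaphorins, plexins, neuropilins, ephrins, Eph receptors, Slits, netrins and Unc5 receptors, and each was beyond 2-fold on 1 or 2 of the 3 hairpins, none on all. Sema3a was lower on every hairpin, and by about the same factor in 2 probes. Sema3c was more than 3-fold higher on hairpin 3 and lower on hairpin 2. Sema5a was lower on hairpins 2 and 3, Sema7a, Plxnb1 and Epha1 were lower on hairpin 3, Unc5b was higher and Unc5c lower on hairpin 2, and Slit2 and Slit3 were higher on hairpin 1.

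None of this passed a test across genes. Of the 73 genes, 47 entered limma's test (44 above background on all 4 arrays, and Plxnc1, Sema4f and Sema4g, which entered through the control array). The other 26 had no probe above background on the control or on all 3 hairpins. Genes seen on only some hairpins, such as Epha10 and Ntn4, were thus left out, while any gene seen on the control was kept. With limma and Benjamini-Hochberg adjustment over all 13567 genes tested, 0 of the 47 were called higher (0% of all genes) and 0 lower (0.346% of all genes), and their adjusted p ranged from 0.964 to 0.998. At an unadjusted p under 0.05, limma gave 1 of 47, Sema3a, against 4.83% of all genes tested. By a rule of size with no test, at least 2-fold in the same direction on all 3 hairpins, 0 of the 47 were higher (0.236% of all genes tested) and 0 lower (1.69%). At 1.5-fold, 0 of the 47 were higher (0.958%) and 2 lower (3.04%), Sema3a and Plxnb1. Among genes above background on all 4 arrays, to which both belong, the 2-fold rule held for 0.0944% of all genes in the higher and 0.315% in the lower direction, and the 1.5-fold rule for 0.723% and 1.29%. The 3 differences of a gene share the control array, so an error on that array moves them together.

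**Figure D1:**
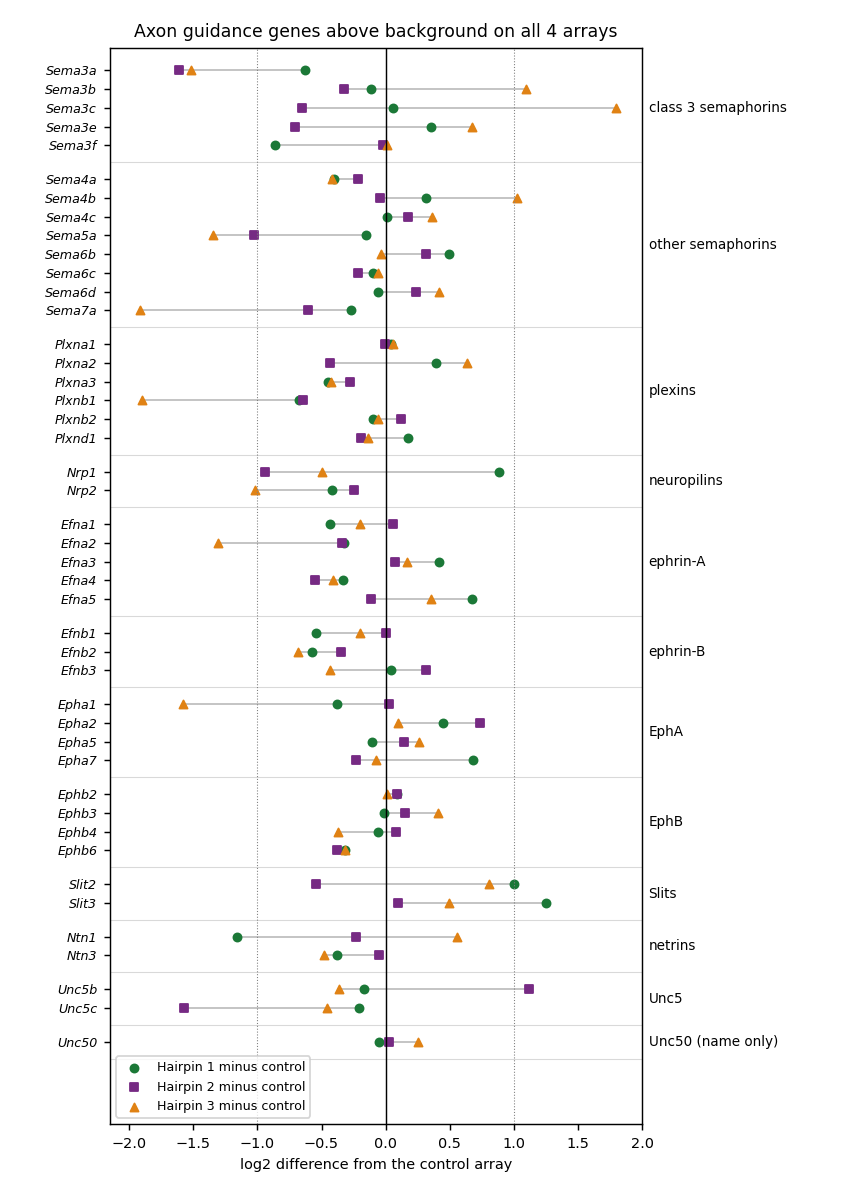
Log2 difference of each hairpin array from the control array for the 44 axon guidance genes above background on all 4 arrays, grouped by family, with the 3 hairpins as circles, squares and triangles and dotted lines at 2-fold. For Sema3a all 3 points lie left of 0, between -1.61 and -0.63, while Sema3c runs from -0.66 on hairpin 2 to 1.79 on hairpin 3.

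Class 3 semaphorins are secreted cues that repel axons and restrain endothelial cells, and among the 44 genes above background on all 4 arrays they held the lowest mean difference (Sema3a) and the highest difference on a single hairpin (Sema3c). Sema3a, a repulsive cue that in mice also promotes bone formation, had signals of 2561, 1358 and 1441 on hairpins 1 to 3, against 4215 on the control array. Its second probe read 368, 183 and 193 on the hairpins, against 513 on the control. The control lay above all 3 hairpins in both probes, and hairpin 1 lay nearest to it. By the brighter probe Sema3a was 1.54-fold, 3.05-fold and 2.86-fold lower on hairpins 1 to 3. Its mean log2 difference was -1.25 ± 0.54 (SD, n = 3 hairpins), with an unadjusted limma p of 0.0464 and an adjusted limma p of 0.964. The other probe gave -1.08 ± 0.60.

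Sema3c, a class 3 semaphorin known to act as an attractant as well as a repellent, went apart from Sema3a on hairpin 3. It read 2288, 1469 and 7977 on hairpins 1 to 3, against 2352 on the control array, and 170, 105 and 584 against 173 in its other probe. Hairpin 3 was the high array in both probes, hairpin 2 the low one, and the control lay among the hairpins. On hairpin 3 the gene was 3.46-fold higher than the control by 1 probe and 3.44-fold by the other, and on hairpin 2 it was 1.58-fold and 1.63-fold lower. The mean over the hairpins, 0.40 ± 1.26, was smaller than their spread (limma, adjusted p = 0.984), and without hairpin 3 it was -0.30.

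Sema3b, which also binds neuropilins, shared the high value on hairpin 3: its signals were 6562, 5956 and 15819 on hairpins 1 to 3 and 7574 on the control array. That is 2.13-fold higher on hairpin 3 and 1.08-fold and 1.25-fold lower on hairpins 1 and 2. Sema3f, a ligand of Nrp2, was low on hairpin 1 only, with 1235, 2317 and 2359 on the hairpins and 2395 on the control. Sema3e, the ligand of Plxnd1, was dimmer, at 48.5, 24.4 and 63.1 on the hairpins and 40.4 on the control, and its control value lay inside the range of the hairpins. Sema3g was above background on hairpin 1 only, at a signal of 36.0, where it was at least 1.99-fold higher than the control. Sema3e and Sema3g each carried 1 outlier flag. Folds given as at least a value use, for the dim array, the higher of the probe's own signal and the smallest signal called above background there.

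The stretches around the transcription starts of 4 genes are shown as examples, and they are not the 4 largest differences. Sema3a and Sema5a were beyond 2-fold on hairpins 2 and 3, and Sema3c and Unc5c were beyond 2-fold on a single hairpin in both of their probes. Each runs from 250 bases before to 50 bases after the start (RefSeq, GRCm38.p6, given 5′ to 3′ on the gene's strand), and capitals mark the GC box GGGCGG on either strand, with overlapping matches kept.
Sema3a (chr5:13396534-13396833, plus strand): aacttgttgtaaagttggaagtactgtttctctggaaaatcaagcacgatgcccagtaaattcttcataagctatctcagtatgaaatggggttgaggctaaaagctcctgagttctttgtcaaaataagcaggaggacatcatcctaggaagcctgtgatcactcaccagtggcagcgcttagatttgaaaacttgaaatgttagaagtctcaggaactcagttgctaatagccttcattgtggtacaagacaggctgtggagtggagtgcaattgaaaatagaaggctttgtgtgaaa
Sema5a (chr15:32244563-32244862, plus strand): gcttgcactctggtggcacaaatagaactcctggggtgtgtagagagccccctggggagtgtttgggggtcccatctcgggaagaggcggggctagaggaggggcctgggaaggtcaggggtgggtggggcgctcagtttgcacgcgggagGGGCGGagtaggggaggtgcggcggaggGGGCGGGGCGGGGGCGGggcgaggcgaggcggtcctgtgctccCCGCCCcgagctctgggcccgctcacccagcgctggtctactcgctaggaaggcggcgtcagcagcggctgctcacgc
Sema3c (chr5:17574566-17574865, plus strand): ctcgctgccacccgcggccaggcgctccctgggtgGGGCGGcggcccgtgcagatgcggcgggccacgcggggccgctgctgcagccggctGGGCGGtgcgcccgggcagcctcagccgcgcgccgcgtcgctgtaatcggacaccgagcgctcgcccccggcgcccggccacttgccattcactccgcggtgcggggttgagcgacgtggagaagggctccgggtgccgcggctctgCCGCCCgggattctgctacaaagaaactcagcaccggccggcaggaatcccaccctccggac
Unc5c (chr3:141465314-141465613, plus strand): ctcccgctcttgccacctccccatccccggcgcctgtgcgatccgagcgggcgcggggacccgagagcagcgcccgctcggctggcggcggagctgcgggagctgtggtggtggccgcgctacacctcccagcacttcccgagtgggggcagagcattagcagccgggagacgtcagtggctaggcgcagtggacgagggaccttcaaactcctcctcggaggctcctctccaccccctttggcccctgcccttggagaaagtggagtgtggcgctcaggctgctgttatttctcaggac

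The 4 windows differed in composition. The Sema3a window was 41.3% G and C and held 0 GC boxes, while the Sema3c window was 75.7% G and C with 3 GC boxes and the Sema5a window 71.3% with 5, some of them overlapping. The Unc5c window was 68.3% G and C and held 0. Of 32851 promoter windows of the same length, 35.7% hold a GC box and the median content of G and C is 52.7%. Of the 54 windows of guidance genes in the same table, 45 (83.3%) hold a GC box, so the Sema3a and Unc5c windows are among the 9 that do not. The TATA box TATAAA (in 13.6% of all windows) and the CCAAT box CCAAT (37.4%), searched on both strands, were in none of the 4, and the E box CANNTG, the same on both strands (72.3%), was found 2 times in the Sema3a window, 2 times in the Sema3c window, and not in the others. Among the 54 windows of guidance genes, 3.70% hold the TATA box, 22.2% the CCAAT box and 42.6% the E box. Sema3a and Sema5a, both low on hairpins 2 and 3, thus had windows of unlike composition. These matches describe letters in the window and are not binding sites.

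Among the membrane-bound semaphorins above background on all 4 arrays, Sema7a and Sema5a had the lowest means. Sema5a, a transmembrane cue with thrombospondin repeats, read 4238, 2427 and 1942 on hairpins 1 to 3 and 5031 on the control array. It was 1.11-fold lower on hairpin 1, 2.04-fold on hairpin 2 and 2.54-fold on hairpin 3, so the size of the difference varied by hairpin (mean -0.84 ± 0.62, limma, adjusted p = 0.964). The stromal marker Pdgfra was also low on hairpins 2 and 3, at -1.15 and -1.17, and near the control on hairpin 1, and its part in the differences of Sema5a and Sema3a was not tested. Sema7a, a lipid-anchored semaphorin that signals through integrins and Plxnc1, read 477, 396 and 160 on the hairpins and 613 on the control. The control was the highest of the 4 arrays, and only hairpin 3, 3.77-fold lower, was beyond 2-fold.

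Sema4b, a transmembrane semaphorin, was high on hairpin 3 like Sema3b and Sema3c, with 733, 600.0 and 1252 on hairpins 1 to 3 and 627 on the control, which is 2.04-fold higher there. Sema4a and Sema6c, both transmembrane cues, lay slightly below the control on all 3 hairpins, by -0.35 ± 0.11 and -0.13 ± 0.08, and the second probe of Sema6c gave -0.57 ± 0.24. Sema4c, a ligand of Plxnb2, differed by 0.18 ± 0.18, Sema6b by 0.26 ± 0.27 and Sema6d by 0.20 ± 0.24, each about the size of its spread. The other probe of Sema6d was below background on all 4 arrays, so its level was not settled. Sema4g read 38.3 and 67.6 on hairpins 1 and 2 and 84.6 on the control, and was not above background on hairpin 3, where it was at least 5.52-fold lower. Sema4f was not above background on hairpin 1 (at least 2.27-fold lower), read 46.4 and 96.2 on hairpins 2 and 3, and 50.4 on the control. Sema5b was above background on hairpin 1 only, at 61.1 by 1 of its 2 probes, at least 3.38-fold higher than the control, while the other probe was below background on all 4 arrays.

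**Figure D2:**
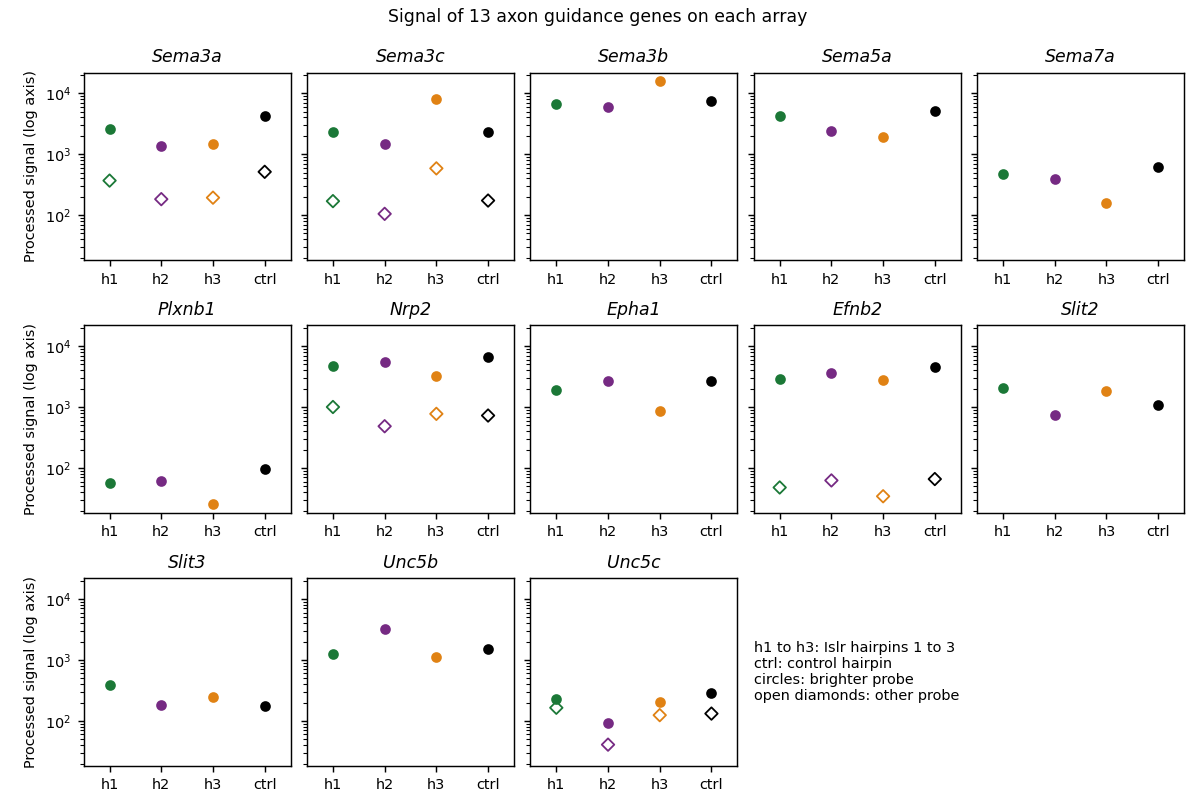
Processed signal on a log axis for 13 axon guidance genes on each array, hairpins 1 to 3 and the control, with 1 point per array and open diamonds for a second probe. Both probes of Sema3a are highest on the control, both probes of Sema3c are highest on hairpin 3, and both probes of Unc5c are lowest on hairpin 2.

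Plexins are the signalling receptors of semaphorins. Plxnb1, the receptor of Sema4d, read 56.9, 61.0 and 25.4 on hairpins 1 to 3 and 96.7 on the control array. The control was highest and hairpin 3 lowest. Plxnb1 was 1.59-fold, 1.56-fold and 3.73-fold lower on the hairpins (mean -1.07 ± 0.72, limma, adjusted p = 0.964), and with normexp background correction and quantile normalization the mean was -0.51. These signals are close to the lowest ones called above background, which were 20.8, 19.1 and 15.0 on hairpins 1 to 3 and 19.3 on the control. Its ligand Sema4d was above background on no array.

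Several other plexins lay close to the control. Plxnb2, which shares ligands of class 4 with Plxnb1, differed by -0.01 ± 0.11, Plxna1 by 0.03 ± 0.03 and Plxnd1, the receptor of Sema3e, by -0.05 ± 0.20. This Plxnd1 probe carried 2 outlier flags, and its other probe, without flags, also gave -0.05. Plxna3, a partner of Nrp2, lay below the control on all 3 hairpins (-0.38 ± 0.09), with outlier flags on 3 of its 4 features, and Plxna2 went both ways, from -0.43 on hairpin 2 to 0.64 on hairpin 3. Plxnc1, the receptor of Sema7a, read 42.1 on hairpin 2 and 39.0 on the control and was too dim to call on hairpins 1 and 3, at least 1.76-fold lower on hairpin 1 and 2.54-fold on hairpin 3. Its features on those 2 arrays carried outlier flags, and its other probe was below background on all 4 arrays. Plxna4 was above background on hairpin 3 only, with a signal of 67.8 by 1 of 2 probes.

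Neuropilins bind class 3 semaphorins and vascular endothelial growth factor. Nrp1, the receptor subunit for Sema3a, read 455, 134 and 183 on hairpins 1 to 3 and 262 on the control array. Hairpin 1 lay above the control and hairpins 2 and 3 below it, with differences of 0.89, -0.94 and -0.49, and leaving out hairpin 2 turned the mean from -0.18 to 0.20. On hairpins 2 and 3, then, Sema3a and Nrp1 were both below the control, and on hairpin 1 they lay on opposite sides of it. Nrp2, the main receptor subunit for Sema3f, gave 2 unlike answers. The probe for 1 RefSeq transcript read 4715, 5566 and 3259 on the hairpins and 6721 on the control (mean -0.56 ± 0.40), and the probe for another read 1002, 485 and 774 on the hairpins and 726 on the control (0.04 ± 0.56). On hairpin 3 they differed by 1.14 on the log2 scale, the widest gap of any gene in the set with 2 probes above background.

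Each ephrin had a probe above background on all 4 arrays, and none differed from the control by 2-fold on more than 1 hairpin. Efnb2, a B-type ephrin that marks arterial endothelium and also acts in bone-forming cells, read 2916, 3585 and 2824 on hairpins 1 to 3 and 4628 on the control array, so that the control was highest. Its mean difference of -0.53 ± 0.17 was larger than its spread but did not pass (limma, adjusted p = 0.964), and its second probe gave -0.44 ± 0.43. Efna4 lay below the control on all 3 hairpins (-0.43 ± 0.11, limma, adjusted p = 0.964), and Efna2 read 97.9, 102 and 51.8 on the hairpins and 131 on the control, low mainly on hairpin 3. Efna5 went the other way on hairpins 1 and 3, with 2496, 1518 and 2092 on the hairpins and 1669 on the control (0.31 ± 0.40). Efna1 (-0.19 ± 0.25), Efnb1 (-0.25 ± 0.28), Efna3 (0.22 ± 0.18) and Efnb3 (-0.03 ± 0.38) differed by about their spread or less. The other probe of Efna3 was below background on all 4 arrays, so its level was not settled.

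The Eph receptors went both ways. Epha1, a receptor of A-type ephrins, read 1906, 2658 and 870.2 on hairpins 1 to 3 and 2648 on the control array, 2.98-fold lower on hairpin 3 and level on hairpin 2, and its control feature carried an outlier flag. Epha2, a receptor of the same ligands that is common outside the nervous system, read 2610, 3341 and 2139 on the hairpins and 2041 on the control, above the control on all 3 (0.43 ± 0.32, limma, adjusted p = 0.964). Ephb4, the receptor of Efnb2, differed by -0.12 ± 0.23, with -0.13 ± 0.33 in its second probe. The first of these Ephb4 probes carried 1 outlier flag. Ephb2 (0.06 ± 0.05) and Ephb3 (0.18 ± 0.21) were near the control, and Ephb6, a receptor without kinase activity, was at -0.34 ± 0.04, where its second probe, at a signal of 29.3 on the control, gave -0.002 ± 0.18.

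The EphA receptors with several probes need care. Epha5 read 9922 to 13349 on the hairpins and 11382 on the control by 1 probe and 3.55 to 5.12 and 4.79, below background, by the other, so its level in these cells was not settled by the array. Epha7 was highest on hairpin 1 in all 3 of its probes, with 149, 154 and 33.8 there against 99.2, 53.1 and 4.66 on the control, the last below background. The differences on hairpin 1 were 0.68 and 1.63 for the 2 probes above background on all 4 arrays, and on hairpin 3 these 2 probes lay on opposite sides of 0. Epha10 was above background on hairpins 1 and 3 by 1 of 2 probes, and on hairpin 1 it was at least 6.40-fold higher than the control, at a signal of 116.

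Slits are large secreted ligands, first known as repellents at the midline of the nervous system. Slit2 read 2045, 735 and 1867 on hairpins 1 to 3 and 1090.5 on the control array. Hairpins 1 and 3 lay above the control (2.00-fold and 1.75-fold) and hairpin 2 below it (1.46-fold), for a mean of 0.42 ± 0.84. Slit3, which in mice is made by osteoblast lineage cells and promotes bone vessels, read 390.3, 184 and 242 on the hairpins and 175 on the control. It lay above the control on all 3 hairpins, by 2.38-fold, 1.07-fold and 1.41-fold, for a mean of 0.61 ± 0.58 (limma, adjusted p = 0.964). Slit1 was called above background on hairpin 3 only, at a signal of 17.5, close to the lowest called there. It read 18.1 on hairpin 1 and 17.8 on the control, so the call does not mark a higher signal. Of the receptors, only Robo2 was seen, on hairpin 2 alone (a signal of 24.8 by 1 of 2 probes).

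Netrins and their receptors split by hairpin as well. Ntn1, the founding netrin, read 45.7, 91.3 and 156 on hairpins 1 to 3 and 109 on the control array, low on hairpin 1 (2.23-fold) and above the control on hairpin 3. Its mean of -0.28 ± 0.86 turned to 0.16 without hairpin 1, and its second probe was below background on all 4 arrays. Ntn3 was at -0.30 ± 0.22. Ntn4, a laminin-binding netrin of basement membranes, read 57.1 and 74.1 on hairpins 2 and 3, at least 2.67-fold and 3.48-fold higher than the control, and was not above background on hairpin 1 and on the control.

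Unc5b, the Unc5 receptor of endothelial cells and many stromal tissues, read 1243, 3185 and 1137 on hairpins 1 to 3 and 1490.5 on the control array. It was 2.17-fold higher on hairpin 2 and slightly below the control on the others (mean 0.20 ± 0.80, and -0.27 without hairpin 2). Unc5c did the reverse on that hairpin, with 229, 93.1 and 201 on the hairpins and 282 on the control. It was 2.98-fold lower on hairpin 2 in this probe and 3.18-fold lower in the other, which read 164, 40.8 and 124 on the hairpins and 132 on the control. The 2 Unc5 receptors above background thus stood on opposite sides of the control on hairpin 2. Of the other netrin receptors, Dcc was at -0.39 ± 0.19 and Neo1 at 0.18 ± 0.33.

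How often a guidance gene stood off the control depended on the hairpin. Among the 44 genes above background on all 4 arrays, hairpin 1 was at least 2-fold higher for 2 (Slit2 and Slit3, where 1.17% of all such genes were) and at least 2-fold lower for 1 (Ntn1, 1.53%). Hairpin 2 was higher for 1 (Unc5b, 1.5%) and lower for 3 (Sema3a, Sema5a and Unc5c, 2.18%). Hairpin 3 was higher for 3 (Sema3b, Sema3c and Sema4b, 2.87%) and lower for 7 (Efna2, Epha1, Nrp2, Plxnb1, Sema3a, Sema5a and Sema7a), 15.9% of the 44 against 3.18% of all such genes. Of these 7, Nrp2 was at 0.12 on hairpin 3 by its second probe, and Sema3a at -1.38 by its own. Plxnb1 was near the lowest signal called above background, and the control feature of Epha1 carried an outlier flag. The 3 counts share the control array, so they are not independent of each other.

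**Figure D3:**
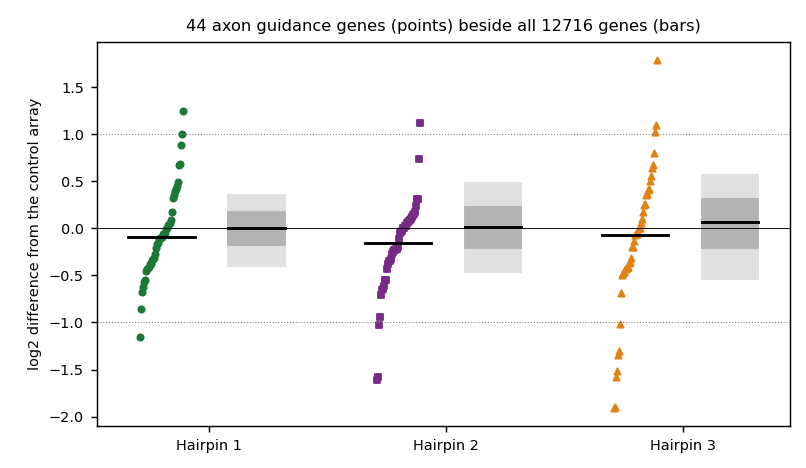
Log2 difference of each hairpin array from the control array, with points for the 44 axon guidance genes and a black line at their median, beside bars for all 12716 genes above background on all 4 arrays (dark from the 25th to the 75th percentile, light from the 10th to the 90th, black line at the median). The medians of the guidance genes are -0.10, -0.15 and -0.07 on hairpins 1 to 3, and on hairpin 3 their points run from -1.91 to 1.79.

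The list as a whole was spread more widely than the genes of the array and was not shifted far. Its 44 genes had median differences of -0.10, -0.15 and -0.07 on hairpins 1 to 3, against 0.01, 0.01 and 0.07 over all 12716 genes above background on all 4 arrays. For the mean over hairpins the medians were -0.04 and 0.02. The root mean square difference from the control was 0.49, 0.53 and 0.79 for the guidance genes on hairpins 1 to 3, against 0.38, 0.43 and 0.54 for all genes. These are descriptions of 4 arrays and carry no test.

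Differences that set a single hairpin apart were also counted against the other hairpins. Hairpin 3 was at least 2-fold above each of the other 3 arrays for Sema3b and Sema3c (2 of 44, against 0.967% of all such genes) and at least 2-fold below each for Epha1, Plxnb1 and Sema7a (3 of 44, against 0.417%). Hairpin 2 stood alone above for Unc5b (1 of 44, against 0.267%) and below for Unc5c (1 of 44, against 0.543%). Hairpin 1 stood alone for none in either direction (0.307% of all such genes above and 0.204% below). Each of these genes stood at least 2-fold off every other array on 1 knockdown culture, and the mean over hairpins does not show which culture this was. Smaller differences on other hairpins were not excluded by this rule. Plxnb1 was also 1.59-fold and 1.56-fold lower than the control on hairpins 1 and 2, and Sema7a 1.52-fold lower on hairpin 2.

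Several probes for a gene give separate readings of it, which checks a value within the same RNA. Probe sequences were not available here, so whether the probes read different stretches is not known. In the set, 10 genes had 2 probes above background on all 4 arrays. Their mean differences lay a median of 0.24 apart on the log2 scale, against 0.10 over the 3344 such genes of the array. For Sema3c the 2 probes differed by at most 0.05 on any hairpin, and for Sema3a by at most 0.24. Unc5c was 0.62 apart on hairpin 1 but within 0.09 on hairpin 2, the array on which it stood out. Nrp2, Epha7 and Sema6c were the least settled, with gaps of up to 1.14, 0.95 and 0.76.

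**Figure D4:**
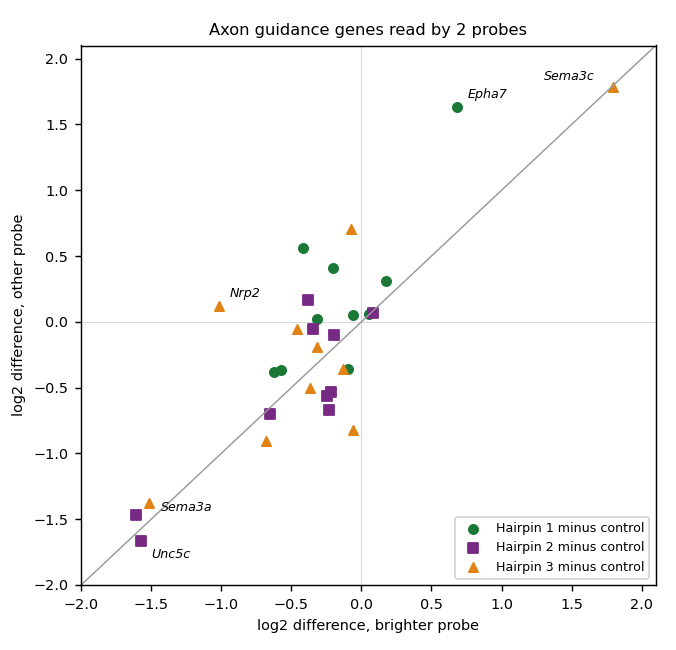
Log2 difference of each hairpin array from the control array by the brighter probe (horizontal axis) and the other probe (vertical axis) for the 10 axon guidance genes with 2 probes above background on all 4 arrays, and a line of equal values. Sema3a and Unc5c at the lower left and Sema3c at the upper right lie near the line, while Nrp2 on hairpin 3 reads -1.01 by 1 probe and 0.12 by the other.

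The partners and effectors of these receptors were taken from a list of 83 genes, of which 82 were named on the array, 70 were tested and 69 were above background on all 4 arrays. limma called 0 of the 70 after adjustment (0% of all genes higher and 0.346% lower) and gave 3 at an unadjusted p under 0.05, all lower (3.31% of all genes tested): Flrt1, Flrt2 and Vav3. Flrt2 is a membrane protein that binds Unc5 receptors, and read 281, 356 and 371 on hairpins 1 to 3 and 548 on the control array (-0.67 ± 0.18, limma, adjusted p = 0.964). Vav3, a signalling protein that acts below Eph receptors, read 138, 81.7 and 78.8 on the hairpins and 321 on the control (-1.69 ± 0.49, limma, adjusted p = 0.714). Flrt1, of the same family as Flrt2, read 201, 294 and 151 on the hairpins and 696 on the control (-1.70 ± 0.48, limma, adjusted p = 0.686). Both Vav3 and Flrt1 were highest on the control by a wide margin. They were the 2 partners at least 2-fold lower on all 3 hairpins (0.315% of all genes above background on all 4 arrays), and 0 were at least 2-fold higher (0.0944%).

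On the high side, the partners that kept the most distance above the control on all 3 hairpins were Vegfc, a ligand that binds Nrp2 (0.73 ± 0.37), Ngef, a signalling protein that acts below EphA receptors (0.73 ± 0.50), and Mical2, of the family of plexin-binding oxidases (0.56 ± 0.23). Rnd1, a GTPase that binds the cytoplasmic part of plexins, read 1964, 4386 and 4064 on the hairpins and 1983 on the control, high on hairpins 2 and 3 and level on hairpin 1. Dscam, a co-receptor of netrin, read 1531, 736 and 645 on the hairpins and 1504 on the control, low on hairpins 2 and 3 and level on hairpin 1. The median difference over the 69 partners above background was 0.04, against 0.02 over all genes.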

How the data were processed

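Per the file headers, the authors scanned 4 one-colour Cy3 arrays (design 028005, genome build mm9) whose features were read by protocol GE1_1105_Oct12 of Agilent Feature Extraction 11.5.1.1. All 4 lay on 1 slide with 1 scan time, so slide was no block. The deposited intensity values used here are processed signals per feature on a linear scale, which the software had background-subtracted and detrended. The authors' series table held the same signal intensity times 1 factor per array (2.25, 2.08 and 2.02 for hairpins 1 to 3, 2.10 for the control). How the factors were chosen is not stated.

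Log2 signals were averaged over the features of each probe, and each array was scaled by the log2 of its 75th percentile. A probe counted as above background if at least 0.5 of its features were called so. Probes were named by accession through a RefSeq table (28026 of 55681 probes), kept if above background on the control or on all 3 hairpins, and a gene took its values from its brightest kept probe. The 3 hairpins were compared with the 1 control in limma 3.58.1 (R 4.3.3, lmFit and eBayes, two-sided), with Benjamini-Hochberg adjustment over all 13567 genes tested and a threshold of 0.05. The control has no spread, so the fit takes that between hairpins for it, and p-values measure only the spread between these cultures. The number of arrays limits the precision. The members, the lists and the tests were chosen with earlier results of these data known. Genes with values in the text are the brightest of each family, the 3 highest and 3 lowest on each hairpin, and the partners whose least difference over the 3 hairpins was farthest above (3 genes) or below (3 genes) the control. Other members and partners named were chosen after their values were seen. The summed signal of the Schwann and glial markers is not reported here.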

Additional observations from a re-analysis of the deposited data

How the results depend on the processing

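Under each other setting tried (scaling, background correction, source of values, filter, probe choice, outlier flags, left-out hairpin, an intensity trend in limma, and an adjusted p under 0.10), limma called 0 guidance genes. The smallest limma adjusted p of any guidance gene tested was 0.251 (without hairpin 2), and that of Sema3a ranged from 0.341 (without hairpin 1) to 1.00. Without a filter, the 2-fold rule took in 2 higher genes, Epha4 and Robo2, and 1 lower gene, Sema3d (0.681% and 1.54% of all genes), and with a filter on at least 1 array 1, Robo2, was higher (0.594%). Epha4 and Sema3d were below background on all 4 arrays, and Robo2 was above it on hairpin 2 only. With the fold rule at 1.5, 2 genes were lower. Leaving out 1 hairpin gave 0 to 2 genes at least 2-fold lower. Without hairpin 1 these were Sema3a and Sema5a, where 2.43% of all genes tested were that low. Among genes above background on all 4 arrays, to which both belong, the share was 0.857%. Without hairpin 2 they were Plxnc1 and Sema4g, where 2.59% of all genes tested were that low. Plxnc1 and Sema4g entered through the control, where they are high, so their direction was set by the filter. Leaving out 1 hairpin moved the list's median of -0.04 to between -0.093 and -0.038. Of the 25 guidance genes followed across settings, left-out hairpins turned the direction of 6. Nrp1 ran from -0.72 to 0.20, Ntn1 from -0.69 to 0.16 and Plxnb2 from -0.078 to 0.029. Sema3b ran from -0.22 to 0.49, Sema3c from -0.30 to 0.92 and Unc5b from -0.27 to 0.47. Fewer arrays enter these fits by construction. No other setting turned the direction of any of the 25 genes. Other genes named above were not followed in this way. Some of them, such as Sema3e, Plxna2 and Efnb3, had hairpins on both sides of the control. No paired analysis was possible because the control has 1 array. Signals near the lowest called above background, as for Plxnb1 and Sema4g, limit what the dim genes show.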
